A study of Mus musculus with 6 samples.

Results

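RNA-Seq values of 9 interferon-inducible GTPase genes and of *AW112010* were examined in osteoclast precursors of mice with inflammatory bone destruction. The members are 4 guanylate-binding proteins (*Gbp2*, *Gbp3*, *Gbp5* and *Gbp7*), 5 immunity-related GTPases (*Igtp*, *Irgm1*, *Irgm2*, *Iigp1* and *Tgtp1*) and *AW112010*, selected by gene symbol, and all 10 were found among the 24346 symbols of the files. They were chosen with the JAK inhibitor against vehicle comparison of these mice already known, so their differences between the groups are a description. Counts of members past a threshold are given beside the share of all genes for reference and test nothing. CX3CR1-EGFP knock-in mice, in which green fluorescence marks cells of the monocyte lineage, were injected at the calvarial periosteum with lipopolysaccharide (LPS) at 20 mg/kg. From that day, 3 mice were given the JAK inhibitor ABT-317 (60 mg/kg, 2 oral doses per day), which selectively blocks activation of JAK1, and 3 were given vehicle, and EGFP+ cells were sorted from the marrow of the calvaria after 5 days. All 6 mice carried the reporter and received LPS, so there is no group without inflammation. The sources used here give neither the age nor the sex of the sequenced mice. The authors deposited 1 table of FPKM per mouse, that is, fragments scaled by transcript length and by library size.

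Interferon-gamma binds a receptor that uses JAK1 and JAK2, and its target genes often carry gamma-activated sites (GAS). The response also induces IRF1, which binds interferon-stimulated response elements (ISRE), and type I interferons act on ISRE through JAK1 and TYK2. Guanylate-binding proteins and immunity-related GTPases are classic products of this response in macrophages, where they gather on membranes that enclose intracellular microbes, and guanylate-binding proteins also help cytosolic caspases to sense LPS. *AW112010* is annotated as a long non-coding RNA, although a non-canonical open reading frame in it has been described in macrophages, and it is abundant in activated lymphoid and myeloid cells.

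The genes fall into clusters. In GENCODE M21 on GRCm38, which is the mm10 build named in the submitters' processing notes, *Gbp5* (142493978 to 142522344), *Gbp7* (142530342 to 142550149), *Gbp3* (142560026 to 142573209) and *Gbp2* (142620602 to 142638008) follow each other on the plus strand of chromosome 3. *Irgm1* (48861968 to 48871683) and *Tgtp1* (48985327 to 48994172) lie on the minus strand of chromosome 11. *Igtp* (58199556 to 58207591) and *Irgm2* (58199618 to 58222782) overlap on its plus strand and share 162 exonic bases, so reads there could be assigned to either gene. *AW112010* is on chromosome 19 (11047612 to 11055808, minus strand).

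Promoters were read from RefSeq (GRCm38.p6) as the 250 bases before each annotated start, and 9 of the 10 members had an entry, *Iigp1* being the exception. A GAS was searched as TTCNNNGAA where N is any base, and an ISRE as a pair of GAAA with any 2 bases between them, each on both strands and with overlaps allowed. All 8 GTPase genes with an entry held an ISRE match, against 2.98% of the 32851 promoters in the table, and 5 of the 8 (*Gbp5*, *Gbp7*, *Igtp*, *Irgm2* and *Tgtp1*) also held a GAS match, against 7.02%. The promoter of *AW112010* held neither. The RefSeq starts of *AW112010*, *Gbp5*, *Irgm2* and *Tgtp1* lie well inside the longer GENCODE genes, and the more distant starts were not examined here. The sequences are shown for 3 sets: *Gbp2* and *Gbp3*, which lie in the same cluster and differed in opposite directions; *Igtp*, *Irgm2* and *Tgtp1*, in which the matches have the same arrangement; and *AW112010*, which had the largest difference. Each is written 5′ to 3′ along the strand of the gene, ends at the base before the start, and has the matches in capitals.
Gbp2 (chr3:142620413-142620662, plus strand): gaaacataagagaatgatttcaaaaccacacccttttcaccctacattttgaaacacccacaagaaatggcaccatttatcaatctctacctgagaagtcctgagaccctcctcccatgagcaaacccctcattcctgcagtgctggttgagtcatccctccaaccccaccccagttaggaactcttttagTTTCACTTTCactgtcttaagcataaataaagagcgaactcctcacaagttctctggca
Gbp3 (chr3:142559794-142560043, plus strand): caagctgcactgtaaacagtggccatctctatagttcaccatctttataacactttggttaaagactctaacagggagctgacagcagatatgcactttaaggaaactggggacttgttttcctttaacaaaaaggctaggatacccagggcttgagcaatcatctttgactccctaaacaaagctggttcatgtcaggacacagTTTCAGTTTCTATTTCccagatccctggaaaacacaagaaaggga
Igtp (chr11:58199306-58199555, plus strand): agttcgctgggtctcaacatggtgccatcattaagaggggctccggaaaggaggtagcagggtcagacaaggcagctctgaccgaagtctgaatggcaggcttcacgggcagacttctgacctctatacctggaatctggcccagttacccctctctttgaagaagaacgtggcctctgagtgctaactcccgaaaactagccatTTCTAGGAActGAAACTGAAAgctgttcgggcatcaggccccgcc
Irgm2 (chr11:58214727-58214976, plus strand): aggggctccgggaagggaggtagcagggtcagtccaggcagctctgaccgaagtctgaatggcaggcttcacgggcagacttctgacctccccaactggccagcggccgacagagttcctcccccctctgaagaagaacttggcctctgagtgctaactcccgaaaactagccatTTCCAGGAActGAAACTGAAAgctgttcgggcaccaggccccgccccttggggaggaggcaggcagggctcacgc
Tgtp1 (chr11:48992247-48992496, minus strand): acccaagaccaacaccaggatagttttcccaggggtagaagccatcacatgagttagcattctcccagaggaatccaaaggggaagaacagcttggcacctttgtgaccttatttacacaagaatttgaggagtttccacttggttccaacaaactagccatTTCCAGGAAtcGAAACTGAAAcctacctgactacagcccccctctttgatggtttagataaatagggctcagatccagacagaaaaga
AW112010 (chr19:11050567-11050816, minus strand): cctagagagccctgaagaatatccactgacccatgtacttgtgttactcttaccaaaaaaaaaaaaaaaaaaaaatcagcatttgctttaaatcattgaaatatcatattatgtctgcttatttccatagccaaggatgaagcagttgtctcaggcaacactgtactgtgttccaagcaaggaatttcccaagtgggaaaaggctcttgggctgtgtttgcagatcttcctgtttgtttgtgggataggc

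In *Igtp*, *Irgm2* and *Tgtp1*, 2 bases separated the end of the GAS match from the start of the ISRE match, which began 34, 64 and 77 bases before the start. The spacing was not particular to the members: *Tgtp2*, outside them, had it too, with its ISRE match 70 bases before the start. *Gbp2* had its ISRE match 59 bases before the start, and *Gbp3* had 2 overlapping matches at 45 and 39 bases before its first start. A second annotated start of *Gbp3* held no match. *Irgm1* had 2 overlapping matches, at 30 and 24 bases. Matches of these letters are a description of the windows and do not show binding.

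**Figure D1:**
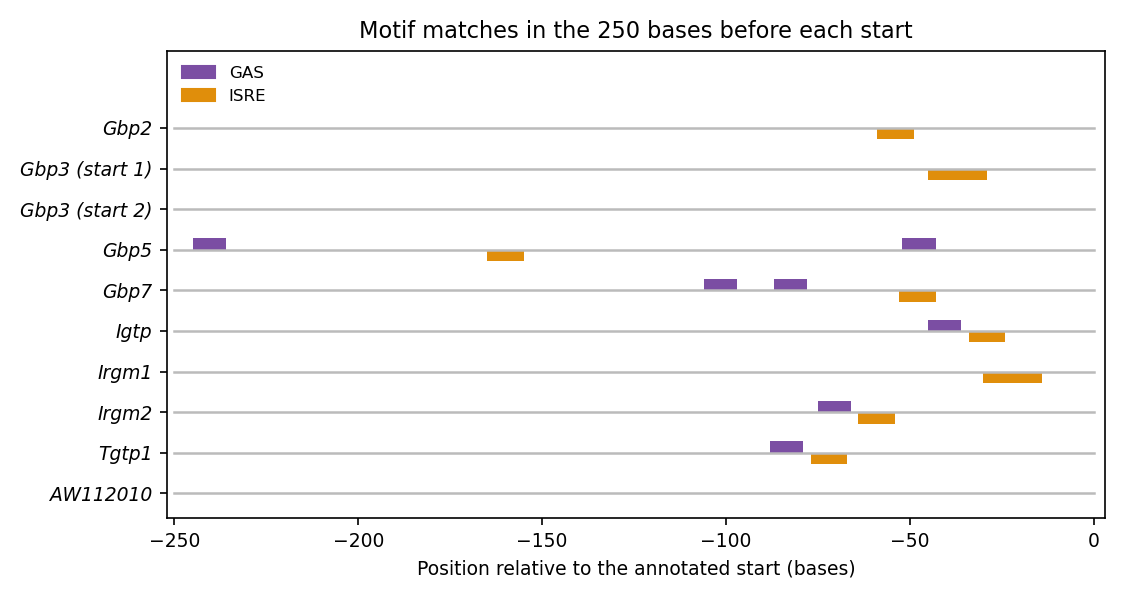
Matches to GAS (purple, above the line) and ISRE (orange, below the line) in the 250 bases before each annotated start, with the position in bases relative to the start on the horizontal axis and 1 line per start. Every GTPase gene shown has an ISRE match at 1 start or more, and *AW112010* has no match.

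Before the results, the libraries were checked. The FPKM summed to between 688372 and 775790 per library. FPKM hold no read counts, so the depth is unknown and no counting intervals can be given. Vehicle-treated mouse 3 stood somewhat apart: it held 24.6% of the within-group sum of squares over the 11301 genes tested, against 14.2% to 16.3% in each other library. The 7 monocyte markers examined (*Cx3cr1*, *Csf1r*, *Ly6c2*, *Ccr2*, *Itgam*, *Adgre1* and *Cd14*) were present in all 6 mice, with *Csf1r* between 355 and 422 FPKM. Genes of neutrophil granules were also abundant, and *Elane*, the neutrophil elastase, was at 1003 to 2452 FPKM with vehicle and at 3713 to 4023 with JAK inhibitor, without overlap. A list of 11 housekeeping genes had a median difference of -0.006 on the log2 scale, but its glycolytic members *Gapdh* (-0.50, adjusted p = 0.0886 in limma) and *Pgk1* (-0.38) were lower with JAK inhibitor without overlap, differences about as large as those of *Igtp* and *Irgm1*. Nothing in the labels names a batch.

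*AW112010* was by far the most abundant member, and it was lower in JAK inhibitor-treated mice. Its FPKM in mice 1 to 3 was 473, 285 and 655 with vehicle and 116, 90.3 and 122 with JAK inhibitor. Every vehicle-treated mouse lay far above every JAK inhibitor-treated mouse, and vehicle-treated mouse 3 was the highest. The group means were 471 ± 185 (SD, n = 3) and 110 ± 16.9 (SD, n = 3), a ratio of 4.30 in vehicle over JAK inhibitor, and the difference was -2.03 on the log2(FPKM + 1) scale (standard error 0.26). *AW112010* exceeded 97.6% of the genes tested by its mean with vehicle and 90.2% with JAK inhibitor. By count, 1 member, *AW112010*, lay past an adjusted p of 0.05 in limma, beside 0.133% of all genes tested in either direction, 0.0973% (11 genes) lower and 0.0354% (4 genes) higher. Since it was chosen with this comparison known, that count is no test of it, and nothing is read from it. When 1 mouse was left out, the difference ranged from -2.35 (without vehicle-treated mouse 2) to -1.75 (without vehicle-treated mouse 3).

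Among the guanylate-binding proteins, *Gbp2* was lower and *Gbp3* slightly higher with JAK inhibitor. *Gbp2*, whose product coats vacuoles that hold microbes, measured 11.3, 6.17 and 8.89 FPKM with vehicle and 4.24, 4.26 and 4.67 FPKM with JAK inhibitor. The groups did not overlap, and the spread was 2.57 (SD) around a mean of 8.79 with vehicle but 0.247 around 4.39 with JAK inhibitor. The ratio of the means was 2.003 in vehicle over JAK inhibitor, and the difference was -0.83 on the log2(FPKM + 1) scale (standard error 0.20). *Gbp3*, a close neighbour of the same family, had 17.5, 17.5 and 18.4 FPKM with vehicle and 21.7, 22.0 and 19.7 with JAK inhibitor. Here every JAK inhibitor-treated mouse lay above every vehicle-treated mouse, by a difference of 0.23 (standard error 0.11), and the interval of this difference, -0.01 to 0.48 at 95%, included 0. The within-group SD of *Gbp3*, 0.065 on the log2 scale, was among the smallest, with only 3.9% of the genes tested below it. The FPKM of *Gbp2* divided by that of *Gbp3*, a value that no scaling of a library can change, was 0.646, 0.352 and 0.483 with vehicle and 0.195, 0.193 and 0.237 with JAK inhibitor. *Gbp7*, which has been linked to host defense and oxidant production, had 4.35, 5.72 and 7.37 FPKM with vehicle and 4.12, 4.84 and 4.53 with JAK inhibitor. Its groups overlapped, with a difference of -0.29 (standard error 0.19) that was -0.13 without vehicle-treated mouse 3 and -0.45 without vehicle-treated mouse 1. Of the windows of 75 bases in its transcript, the read length of the study, 11.4% also occurred in another gene, mostly the pseudogene *Gm43802*, whereas this share was 0.983% for *Gbp2* and 2.68% for *Gbp3*.

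*Gbp5*, which promotes inflammasome assembly, was close to the lower end of the values. It had 0.606, 0.306 and 0.182 FPKM with vehicle and 0.196, 0.560 and 0.122 with JAK inhibitor, and the groups overlapped. No mouse reached 1 FPKM, the filter used for the model, so its difference was not estimated there.

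The immunity-related GTPases are divided into regulators with a GMS motif, which control the others, and effectors with a GKS motif, which load onto vacuoles. The 3 regulators were measured above 4 FPKM in every mouse, and both effectors among the members stayed below 1. *Irgm1*, a regulator that also affects autophagy, had 21.2, 21.5 and 19.3 FPKM with vehicle and 16.9, 14.1 and 15.2 with JAK inhibitor. The groups did not overlap, and the difference was -0.40 (standard error 0.12) with a ratio of means of 1.34. *Igtp*, also called Irgm3, had 11.5, 11.04 and 15.2 FPKM with vehicle and 10.8, 8.34 and 6.57 with JAK inhibitor. These groups did not overlap either, but vehicle-treated mouse 2 and JAK inhibitor-treated mouse 1 were close, and the difference was -0.52 (standard error 0.19). *Irgm2* had 7.30, 5.56 and 7.93 FPKM with vehicle and 4.98, 6.18 and 4.54 with JAK inhibitor. Its groups overlapped through vehicle-treated mouse 2 and JAK inhibitor-treated mouse 2, with a difference of -0.34 (standard error 0.18).

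The effector *Tgtp1* had 0.374, 0.189 and 0.246 FPKM with vehicle and 0.106, 0.072 and 0.070 with JAK inhibitor. The groups did not overlap, but 87.7% of the windows of 75 bases in its transcript also occurred in another gene, nearly all in its copy *Tgtp2*, so the 2 genes cannot be separated with certainty. *Tgtp2* itself had 2.14, 1.65 and 2.21 FPKM with vehicle and 1.64, 0.974 and 0.817 with JAK inhibitor, a difference of -0.50 (standard error 0.22, adjusted p = 0.316 in limma). *Iigp1*, the best-studied effector, which the annotation places outside these clusters, had 0.017, 0.630 and 0.109 FPKM with vehicle and 0.485 and 0.069 in JAK inhibitor-treated mice 1 and 2, and was listed at 0 in mouse 3. No direction can be read from these values.

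**Figure D2:**
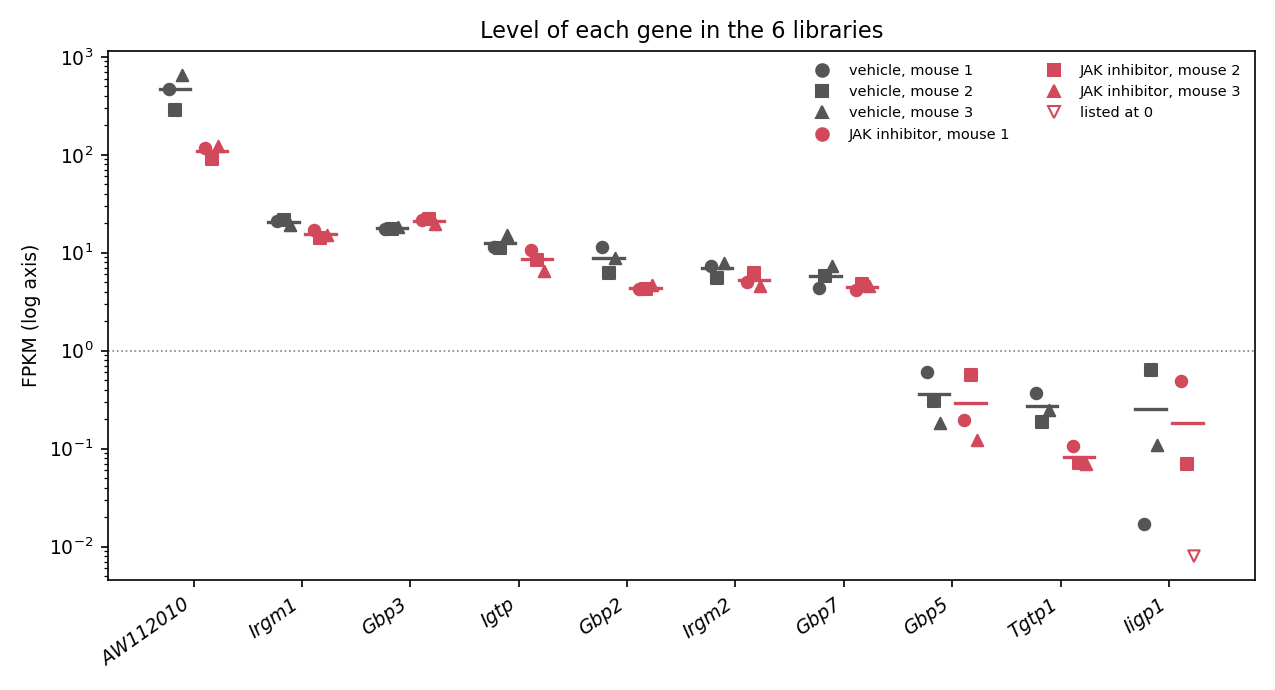
FPKM of the 10 genes on a logarithmic axis in the 3 vehicle-treated (grey) and 3 JAK inhibitor-treated mice (red), with 1 marker shape per mouse number, a bar at each group mean and a dotted line at 1 FPKM. *AW112010* lies between 90.3 and 655 FPKM, 6 GTPase genes lie between 4.12 and 22.0, and *Gbp5*, *Tgtp1* and *Iigp1* lie below 1, with the value listed at 0 drawn as an open triangle.

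The order of the levels changed in part between the groups. FPKM is scaled per length, but the lengths used are not known, so the order of genes with close means is uncertain. With vehicle the order of the means was *AW112010*, *Irgm1* (20.7), *Gbp3* (17.8), *Igtp* (12.6), *Gbp2* (8.79), *Irgm2* (6.93) and *Gbp7* (5.81), and the ranges of *Igtp* and *Gbp2*, of *Gbp2* and *Irgm2* and of *Irgm2* and *Gbp7* overlapped. With JAK inhibitor *Gbp3* (21.1) stood above *Irgm1* (15.4), and *Gbp2* (4.39) moved to the place below *Gbp7* (4.50), from which its range was not separate. The mean of *AW112010* was 22.8 times that of the next gene with vehicle and 5.18 times with JAK inhibitor, and it made up 80.6% to 89.4% of the summed FPKM of the 10 genes in the vehicle-treated mice and 59.9% to 68.8% in the JAK inhibitor-treated mice. The summed FPKM of the 9 GTPase genes was 74.2, 68.6 and 77.6 with vehicle and 63.4, 60.5 and 55.4 with JAK inhibitor.

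Of the 10 members, 7 passed the filter of at least 1 FPKM in at least 1 mouse, and each of these had more than 1 FPKM in all 6 mice. Of the 7, 6 were lower and 1 (*Gbp3*) was higher by the estimate, beside 50.6% lower of all genes tested. At an unadjusted p under 0.05 in limma, 4 were lower (*AW112010*, *Gbp2*, *Igtp* and *Irgm1*), beside 9.4% of all genes tested, and 0 were higher, beside 6.57%. Groups that did not overlap with vehicle above were found for the same 4 genes, beside 12.1% of all genes tested, and with JAK inhibitor above for *Gbp3* alone, beside 9.92%. The median difference of the 7 was -0.40 on the log2(FPKM + 1) scale and that of the 6 GTPase genes was -0.37, beside -0.004 over all genes tested. Since the members were chosen with this comparison known, nothing is read from these counts.

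Within the groups, the members did not follow a single order of the mice. Of the 7 members past the filter, 4 peaked in vehicle-treated mouse 3 (*Gbp7*, *Igtp*, *Irgm2* and *AW112010*), whereas the highest was vehicle-treated mouse 1 for *Gbp2*, vehicle-treated mouse 2 for *Irgm1* and JAK inhibitor-treated mouse 2 for *Gbp3*. The lowest value was spread over 4 mice. After removal of the group means, the correlation between 2 members over the 6 libraries ranged from -0.67 (*Gbp7* and *Irgm1*) to 0.82 (*Gbp3* and *Igtp*), was above 0 for 14 of the 21 pairs, and was 0.67 for *Gbp2* and *AW112010*. Only 4 degrees of freedom are left in these values, so they are a description.

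The genes most like the members were sought by the Pearson correlation of log2(FPKM + 1) over the 6 libraries with the mean of the standardised values of the 7 members, among 7734 other genes with a mean of at least 5 FPKM. The 5 highest were *Gyk* (glycerol kinase, r = 0.994), *Dgat2* (an enzyme of triglyceride synthesis, 0.992), *Gpi1* (a glycolytic enzyme, 0.991), *Zswim7* (0.989) and *Gpr84* (a receptor for medium-chain fatty acids, 0.989). They are the top of a long ranking over 6 points and carry no test of likeness. The mean profile keeps the difference between the groups, so genes with vehicle above JAK inhibitor rank high, as all 5 did. Of the 7 members, *Gbp3* ran the other way. The lists described next hold none of them.

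Other genes of both GTPase families were examined as a list of 18, taken from general knowledge. *Gbp10* and *Gbp11* were listed at 0 in every mouse, 10 more stayed below 1 FPKM, and 6 were tested. None of the 6 passed an adjusted p of 0.05 in limma, and 1 had an unadjusted p under 0.05. That gene, *Gm12250*, an immunity-related GTPase gene near *Igtp*, had 3.95, 3.51 and 3.69 FPKM with vehicle and 1.33, 2.83 and 1.38 with JAK inhibitor. Its groups did not overlap, and the difference was -0.77 (standard error 0.23, adjusted p = 0.167 in limma). *Gbp9*, of the cluster on chromosome 5, had a difference of -0.22 (95% interval -0.77 to 0.33, adjusted p = 0.710 in limma), and its groups overlapped. The median of the 6 was -0.22.

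Upstream of the GTPases, none of the interferon genes examined was detected. *Ifng*, *Ifnb1*, *Ifna2*, *Ifna4* and *Ifnl2* were listed at 0 in all 6 mice, as was *Il12b*, a subunit of the cytokine that induces interferon-gamma. A value of 0 in sorted EGFP+ cells says nothing of interferon made by other cells of the calvaria. *Il18*, another inducer, had a difference of -0.34 (standard error 0.16, adjusted p = 0.355 in limma). The value for *Il12a* was 0.43 (standard error 0.19, adjusted p = 0.311 in limma). Without vehicle-treated mouse 3 or JAK inhibitor-treated mouse 2, the value for *Il12a* was 0.29 or 0.28. *Il27* differed by 0.22 with overlapping groups. Of the 3 tested genes of this list of 9, none passed the adjusted threshold in limma, and 1 had an unadjusted p under 0.05.

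The receptors were abundant in both groups. *Ifngr1*, the ligand-binding chain of the interferon-gamma receptor, had 414, 396 and 463 FPKM with vehicle and 502, 484 and 522 with JAK inhibitor. Each JAK inhibitor-treated mouse was above each vehicle-treated mouse, with a difference of 0.25 (standard error 0.09, adjusted p = 0.222 in limma). *Ifnar2*, a chain of the type I receptor, had 160, 162 and 149 FPKM with vehicle and 192, 186 and 195 with JAK inhibitor, a difference of 0.28 (standard error 0.08, adjusted p = 0.157 in limma). *Ifngr2* (-0.08) and *Ifnar1* (-0.25) had overlapping groups and adjusted p of 0.761 and 0.445 in limma.

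The groups overlapped for each of the 3 kinases. The difference was -0.075 for *Jak1* (95% interval -0.32 to 0.17), the target of ABT-317, -0.35 for *Jak2* (-0.77 to 0.06) and 0.04 for *Tyk2* (-0.30 to 0.37). For *Stat2*, a factor of the type I response, it was 0.21 (-0.11 to 0.54). Among the interferon regulatory factors, *Irf1* had 55.7, 51.8 and 56.9 FPKM with vehicle and 45.0, 41.8 and 48.8 with JAK inhibitor, without overlap and with a difference of -0.27 (standard error 0.10, adjusted p = 0.225 in limma). *Irf9* was also without overlap, with a difference of -0.54 (standard error 0.16, adjusted p = 0.171 in limma). *Irf8*, a factor of monocyte development, went the other way, with 180, 205 and 112 FPKM with vehicle and 255, 264 and 236 with JAK inhibitor, a difference of 0.65 (standard error 0.19, adjusted p = 0.169 in limma). *Socs3*, a feedback inhibitor of cytokine receptors, had a difference of -1.27 (standard error 0.47, adjusted p = 0.238 in limma). Its vehicle values were uneven, with 19.9, 9.48 and 52.3 FPKM in mice 1 to 3, against 8.30, 7.74 and 9.28 with JAK inhibitor. Without vehicle-treated mouse 3 the difference was -0.65 for *Socs3* and 0.39 for *Irf8*. Of the 18 genes of this list, all tested, none passed the adjusted threshold in limma, 3 were lower and 3 higher at an unadjusted p under 0.05, and the median was -0.05.

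**Figure D3:**
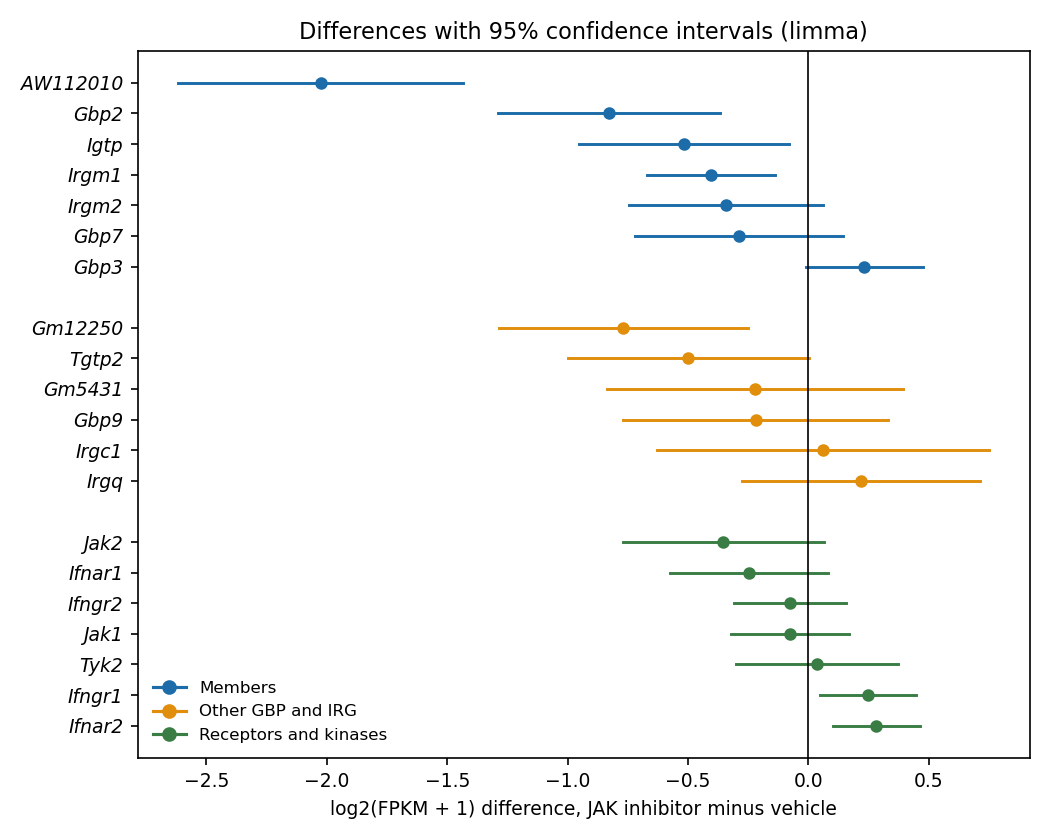
Difference in log2(FPKM + 1), JAK inhibitor minus vehicle (horizontal axis), with its 95% confidence interval from limma for the 7 members past the filter (blue), 6 other GTPase genes (orange) and 7 genes of interferon receptors and their kinases (green). The members run from -2.03 for *AW112010* to 0.23 for *Gbp3*, and *Jak1* lies near 0.

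Other targets of interferon-gamma were split. Of a list of 22, *Cxcl9*, a chemokine that interferon-gamma induces strongly, was listed at 0 in every mouse, 2 more stayed below 1 FPKM, and 19 were tested. None passed the adjusted threshold in limma, and 7 were lower and 0 higher at an unadjusted p under 0.05. These were the genes of antigen presentation by MHC class II, *Cd74* (-0.72), *H2-Aa* (-0.80), *H2-Ab1* (-0.76) and *H2-Eb1* (-0.94), together with the protease inhibitor *Serpina3g* (-1.65), the Fc receptor *Fcgr1* (-1.15) and the chemokine *Ccl5* (-1.84), with adjusted p between 0.0557 and 0.218 in limma. *Serpina3g* had 25.7, 17.4 and 37.4 FPKM with vehicle and 8.58, 6.21 and 7.81 with JAK inhibitor. Its groups were far apart, and it passed the adjusted threshold under 5 of the 14 alternatives. In the same list, most of the immunoproteasome and peptide loading genes lay near 0, with *Psmb8* at 0.02 (95% interval -0.20 to 0.23), *Tap1* at 0.10 (-0.16 to 0.35) and *Psme1* at -0.05 (-0.25 to 0.16). *Psmb9* was at 0.22 (-0.13 to 0.58), with overlapping groups. The median of the 19 was -0.10.

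A list of 20 antiviral genes of the type I interferon response had 16 tested genes, of which *Oas1a* fell past the adjusted threshold in limma. *Oas1a*, a sensor of double-stranded RNA, had 8.31, 9.02 and 10.6 FPKM with vehicle and 3.02, 4.04 and 2.63 with JAK inhibitor, a difference of -1.29 (standard error 0.18, adjusted p = 0.0359 in limma), with all 3 JAK inhibitor-treated mice below all vehicle-treated mice. It did not pass the threshold when any single mouse was left out, with differences from -1.43 to -1.19. *Rtp4* (-1.43), *Ifit3* (-0.79), *Ifit1* (-0.68) and *Irf7* (-0.38) had an unadjusted p under 0.05 and adjusted p of 0.0665, 0.284, 0.292 and 0.299 in limma. *Rtp4* passed the adjusted threshold under 3 of the 14 alternatives: the stricter filter, library weights and without vehicle-treated mouse 3. The median of the 16 was -0.36.

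Partners of the GTPases were taken as a list of 20 genes, which holds the ATG conjugation system that places the GTPases on vacuoles, ubiquitin and galectin tags of damaged membranes, and the inflammasome. All 20 were tested, and none passed the adjusted threshold in limma. At an unadjusted p under 0.05, *Pycard*, the adaptor ASC of inflammasomes, was lower (-0.33, standard error 0.10, adjusted p = 0.183 in limma), while *Casp1* (0.24, standard error 0.09, adjusted p = 0.239 in limma) and *Gabarapl2* (0.26, standard error 0.11, adjusted p = 0.299 in limma) were higher. The value for *Gabarapl2* was 0.16 without JAK inhibitor-treated mouse 1. *Casp4*, the mouse caspase that binds LPS, had a difference of -0.13 (95% interval -0.57 to 0.31), and *Atg5* one of -0.12 (-0.40 to 0.16). The differences of the list ran from -0.33 to 0.27 with a median of -0.11.

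**Figure D4:**
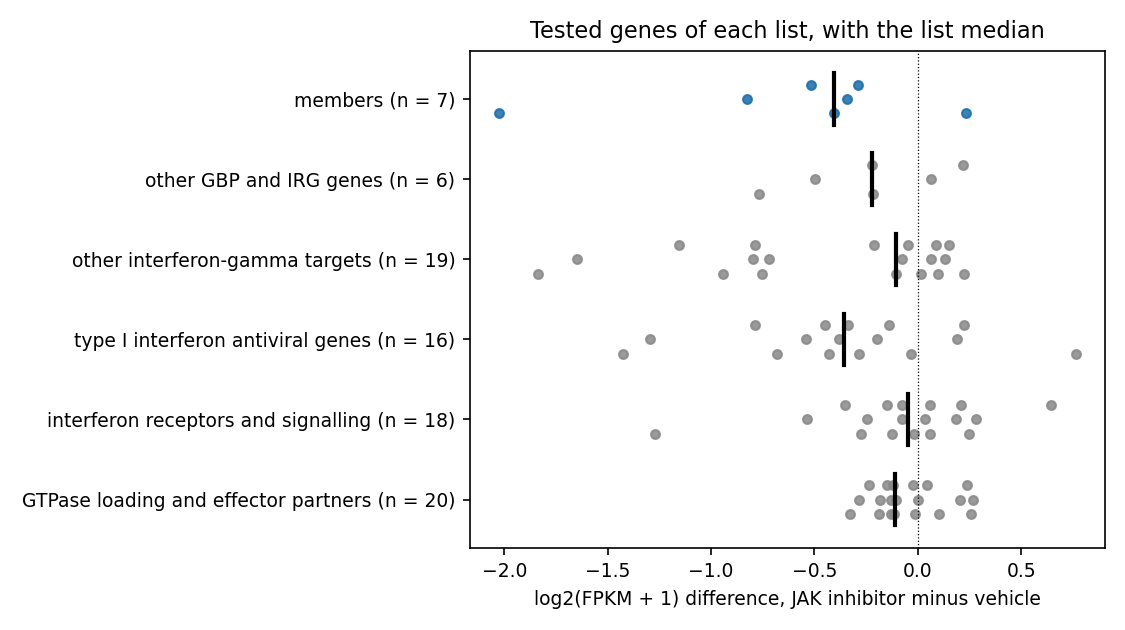
Difference in log2(FPKM + 1), JAK inhibitor minus vehicle, of each tested gene (points) in the list of members (blue) and in 5 pathway lists (grey), with a black bar at each list's median. The medians are -0.40 for the members, -0.22 for other GTPase genes, -0.10 for other targets of interferon-gamma, -0.36 for antiviral genes, -0.05 for receptors and signaling and -0.11 for the partners.

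Markers of other cells differed between the libraries as well. In bulk samples, fewer cells of a type and less RNA per cell cannot be told apart. The summed FPKM of 9 macrophage markers was 193 to 361 in the vehicle-treated mice and 71.8 to 171 in the JAK inhibitor-treated mice, without overlap, and all 9 were above 0 in at least 1 mouse. That sum is dominated by *C1qa*, *C1qb* and *C1qc*. Singly, 8 of the 9 were lower by the estimate, but only *C1qb* and *Mertk* without overlap, and *Vcam1* was higher (0.46 on the log2 scale, with overlap). The sum of 8 markers of natural killer cells, which express *AW112010*, was 14.6, 10.1 and 39.0 FPKM with vehicle and 14.003, 3.93 and 0.199 with JAK inhibitor, so that the groups overlapped, and *Ncr1* was listed at 0 in JAK inhibitor-treated mice 2 and 3. The sum of 8 T cell markers was 5.35 to 7.14 with vehicle and 4.15 to 7.29 with JAK inhibitor, and *Bcl11b* was listed at 0 in all mice. The sum of 6 B cell markers was 27.5 to 31.9 with vehicle and 28.8 to 35.7 with JAK inhibitor. Nearly all of it came from *Cd79b*, while *Ms4a1*, *Ebf1* and *Pax5* were listed at 0 in all mice. The sum of 7 dendritic cell markers overlapped (69.1 to 103 with vehicle and 82.3 to 96.8 with JAK inhibitor), whereas that of 7 osteoclast markers did not (175 to 643 and 117 to 124), with *Calcr* listed at 0 in all mice. For 7 monocyte markers the sums, dominated by *Ly6c2*, were 3695 to 5431 with vehicle and 4887 to 5310 with JAK inhibitor. Of these markers *Cd14* alone had groups without overlap, and it was lower with JAK inhibitor (-0.83). For the 9 of 10 neutrophil markers found in the files, the sum was 16957 to 22883 with vehicle and 17163 to 24336 with JAK inhibitor. That sum is dominated by *S100a8* and hides shifts in both directions: *Elane* (1.12 on the log2 scale), *Mpo* (0.93) and *Camp* (1.64) were higher with JAK inhibitor and *Cxcr2*, a receptor of mature neutrophils, was lower (-0.80), each without overlap and with an unadjusted p under 0.05, while none of the 9 passed the adjusted threshold in limma. Erythroid sums were higher with JAK inhibitor (6.09 to 51.1 against 0.690 to 2.77), and stromal and endothelial sums stayed at or below 1.09 in every mouse. The part of these markers in the values of the members was not tested. Vehicle-treated mouse 3 had the highest sums of natural killer cell and osteoclast markers, but the lowest macrophage sum among the vehicle-treated mice. Without this mouse the difference was -1.75 for *AW112010*, and 6 of the 7 members past the filter were still lower. The osteoclast sums of the remaining vehicle-treated mice (285 and 175) still lay above those with JAK inhibitor. Leaving the mouse out is therefore no test of the part of these markers.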

How the data were processed

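The authors sorted EGFP+ cells from 3 vehicle-treated and 3 JAK inhibitor-treated mice and sequenced 1 library per mouse as single-end reads. The labels name a SMART-Seq HT and Nextera preparation and the study's methods a stranded mRNA kit, so whether strand was kept is not settled. Per the submitters' processing notes, TopHat2 2.0.13, Bowtie2 2.2.3, SAMtools 0.1.19 and Cufflinks 2.2.1 were used with mm10. The annotation is not given in the sources used here. The deposited values are FPKM, computed by the authors per gene, and neither counts nor depth can be recovered from them, which limits what can be said of low genes.

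From these, log2(FPKM + 1) was fitted in limma 3.58.1 (R 4.3.3) with an empirical Bayes trend and Benjamini-Hochberg adjustment over the 11301 of 24346 genes with at least 1 FPKM in at least 1 library. Fold changes on this scale understate those of low genes. Groups were taken from the labels, and replicates were treated as unpaired. The limma p-values set each group difference against the spread within the groups, moderated by the trend over all genes tested. The exact permutation test of 3 against 3 values cannot go below p = 0.1, so it is not given per gene. The members and gene lists were chosen with earlier results of these data known. The genes named were the members, list genes with an unadjusted p under 0.05, the ligands, receptors, kinases and STATs, and the 5 genes most like the members, while *Gbp9*, *Tgtp2*, *Psmb8*, *Tap1*, *Psme1*, *Casp4*, *Atg5*, *Gapdh*, *Pgk1* and the neutrophil genes were added after their values were seen, and 1 gene under this rule is not reported here. The model was tested on simulated data, where 92.5% of 200 genes changed by 1.5 on the log2 scale among 11301 were recovered and 6.09% of the calls were false. The changed genes were drawn only from the more abundant ones, and the noise was normally distributed. Smaller changes, such as most of those given here, were not simulated, so their recovery is not known. The 14 alternatives changed the pseudocount, filter, scaling, trend, weights and replicate block, or left out 1 library. A protein alignment that was planned was not run. Python 3.11.15 with pandas 2.3.3 served for the tables and matplotlib 3.10.9 for the plots.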

Additional observations from a re-analysis of the deposited data

How the results depend on the processing

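The number of genes called by limma at an adjusted p of 0.05 depended on the settings, and the differences of the members less so. Instead of 15 calls, of which 11 were lower with JAK inhibitor, there were 2 without a filter and 2 without the trend (2 lower in each), 34 with at least 1 FPKM in 3 libraries (26 lower), 63 with weights for each library (51 lower) and 67 with the replicate block (53 lower). Leaving out 1 library gave 1 to 25 calls, of which 1 to 16 were lower, with the fewest without JAK inhibitor-treated mouse 2 and the most without vehicle-treated mouse 3. Of the 14 alternatives, none reversed the sign of any of the 7 members past the filter, and their median, -0.40, stayed between -0.48 and -0.36 under the alternatives that kept these 7. Part of this was fixed in advance. Changing the filter, the trend or the replicate block leaves each member's difference as it was. Leaving out 1 mouse cannot reverse the sign where the groups do not overlap. Without a filter, where all 10 members enter, the median was -0.32. *AW112010* missed the adjusted threshold in limma without a filter, without the trend and without vehicle-treated mouse 1. It also missed it each time a single JAK inhibitor-treated mouse was left out, and it passed under the other alternatives. Whether the replicate numbers pair the mice is not known, since the labels tie the number to no litter or day. Same-numbered mice had residual correlations of 0.016, 0.054 and 0.0. With 3 mice per group these values cannot exclude a pairing, and the replicate block raised the calls from 15 to 67.

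A pseudocount of 0.1 moved the median of the other GTPase genes from -0.22 to -0.37, dropping the filter moved it to -0.01, and it lay between -0.37 and -0.069 when 1 library was left out (-0.069 without vehicle-treated mouse 3). That of the ligands and inducers, 0.22, lay between -0.083 (without vehicle-treated mouse 3) and 0.41 (without vehicle-treated mouse 1). *Oas1a* also missed the adjusted threshold without a filter and without the trend, with adjusted p between 0.0587 and 0.237 over the alternatives in which it was missed, leave-one-out included. The medians of the other lists moved by less than the spread between replicates but by more than 1.5 times when 1 mouse was left out: the antiviral genes from -0.36 to -0.18 and the other interferon-gamma targets from -0.10 to -0.03, both without vehicle-treated mouse 1, the partners from -0.11 to -0.02 without vehicle-treated mouse 3, and the receptors and signaling genes from -0.05 to -0.085 without JAK inhibitor-treated mouse 2. Such shifts also went the other way. The median of the other interferon-gamma targets was -0.18 without JAK inhibitor-treated mouse 1 and -0.19 without JAK inhibitor-treated mouse 2. That of the receptors and signaling genes was -0.03 without JAK inhibitor-treated mouse 1. No count intervals can be given, since FPKM hold no depth.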
